A study of Caenorhabditis elegans with 12 samples.

Results

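The 10 genes described here encode basic helix-loop-helix (bHLH) transcription factors, best known from neurons, pharyngeal glands and mesoderm, together with their common partner HLH-2. They are *hlh-2*, *hlh-3*, *hlh-4*, *hlh-6*, *hlh-8*, *hlh-14*, *hlh-19*, *lin-32*, *cnd-1* and *ngn-1*. Every probe set annotated to one of them was taken, which gave 11 of the 22548 probe sets on the array that are not controls, 2 for *hlh-2* and 1 for each other gene. All samples were early *Caenorhabditis elegans* embryos of the strain KM267, in which *hlh-1*, the worm's relative of MyoD, is under heat shock control. They gave 12 arrays, from 3 independent samples of about 80 embryos at each of 4 time points. The 0 h embryos had no heat pulse, and the others were collected 2, 4 or 6 h after 30 min at 34 °C, with 60 min of incubation recorded ahead of the pulse for these later samples only. No pulsed embryos lacking the transgene were analysed here. Effects of HLH-1, of the heat itself and of embryo age therefore cannot be told apart in any comparison of time points. Because whole embryos were measured, fewer cells of a type and less RNA per cell cannot be told apart either.

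bHLH factors bind DNA as dimers, at E-box sequences. HLH-2 is the worm's E/Daughterless protein, a broadly expressed partner that pairs with many of the tissue-restricted members. Among those partners, NGN-1 (neurogenin), CND-1 (NeuroD), LIN-32 (Atonal) and the Achaete-Scute class factors are best known for making neurons, whereas HLH-8 (Twist) acts in the mesoderm.

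The values are MAS5 signals, a linear measure of probe set brightness that had been scaled to a common trimmed mean on every array (500.2 to 500.3). A single limma model was fitted to the log2 signals of the 12 arrays, over 18264 probe sets, namely those above a reference level of 69.7 on at least 3 arrays. All 11 probe sets of the bHLH factors passed this filter, although *hlh-8* passed only through its 4 h and 6 h arrays and *hlh-6* through these and 1 array at 0 h. A transcript is said to rise or fall where the Benjamini-Hochberg adjusted p was under 0.05 and the fold reached 1.7. The fold in that rule is that of the fitted log2 change, on signals as measured. In the folds printed here, an array on the dimmer side that did not exceed the reference level was raised to that level. Such a fold is a lower bound and can lie below 1.7. The fitted log2 change beside such a fold uses the dim signals as measured and is no bound. The induced gene itself, *hlh-1*, had signals of 199, 348 and 196 at 0 h and of 3684, 4023 and 2801.5 at 2 h (replicates A, B and C, the order used throughout). At 6 h *hlh-1* stood at 861, 1520 and 1652.5, so every array after the pulse lay above those at 0 h. Whether the probe set reads the endogenous transcript, that of the transgene or both was not given in the sources used here. Of 9 body wall muscle markers, 8 rose by 6 h and *unc-22* did not pass. The summed signal of the 9 was 701.3 to 2853 at 0 h and 204100 to 265600 at 6 h. Most of the 6 h sum came from *pat-10* and *mlc-2*, with means of 111800 and 79640. The 0 h arrays differed widely for *pat-10* (738.5 ± 989, SD).

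By 6 h, 10 of the 11 probe sets of the bHLH factors had changed from 0 h, 4 of them upward and 6 downward. Over the whole array, 37.4% of tested probe sets were called in this comparison, 21.7% higher and 15.6% lower. That balance depended on the scaling, with 3964 higher and 2858 lower as deposited and 3071 higher and 3540 lower after median centring, whereas the factors' own calls stayed 4 and 6. The 6 h arrays lay wholly above the 0 h arrays for 4 of the 11 and wholly below for 7, against 28.2% and 20.2% of all tested probe sets. At 4 h, 4 had risen and 4 had fallen, where 29% of all probe sets were called, 17.1% higher and 11.9% lower. Without overlap, 4 were higher and 6 lower at 4 h, against 24.3% and 19% of the array. At 2 h, 1 had risen and 4 had fallen, against 25.1% called over the array, 15.5% higher and 9.55% lower. Without overlap, 1 was higher and 5 lower at 2 h, against 23.8% and 18.2%. The risers were *hlh-4*, *hlh-6*, *hlh-8* and *hlh-19*, and the probe sets that fell at one time or another were those of *ngn-1*, *cnd-1*, *hlh-3*, *hlh-14*, *lin-32* and *hlh-2*. No factor rose at one time and fell at another against 0 h. The median log2 change over the 11 probe sets was -0.39 at 2 h, -0.51 at 4 h and -2.58 at 6 h (-2.54 with signals raised to the reference level). The medians over all tested probe sets were 0.11, 0.16 and 0.31. At each time the median of the 11 was the value of 1 probe set of *hlh-2*, so it does not describe the genes that rose.

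**Figure D1:**
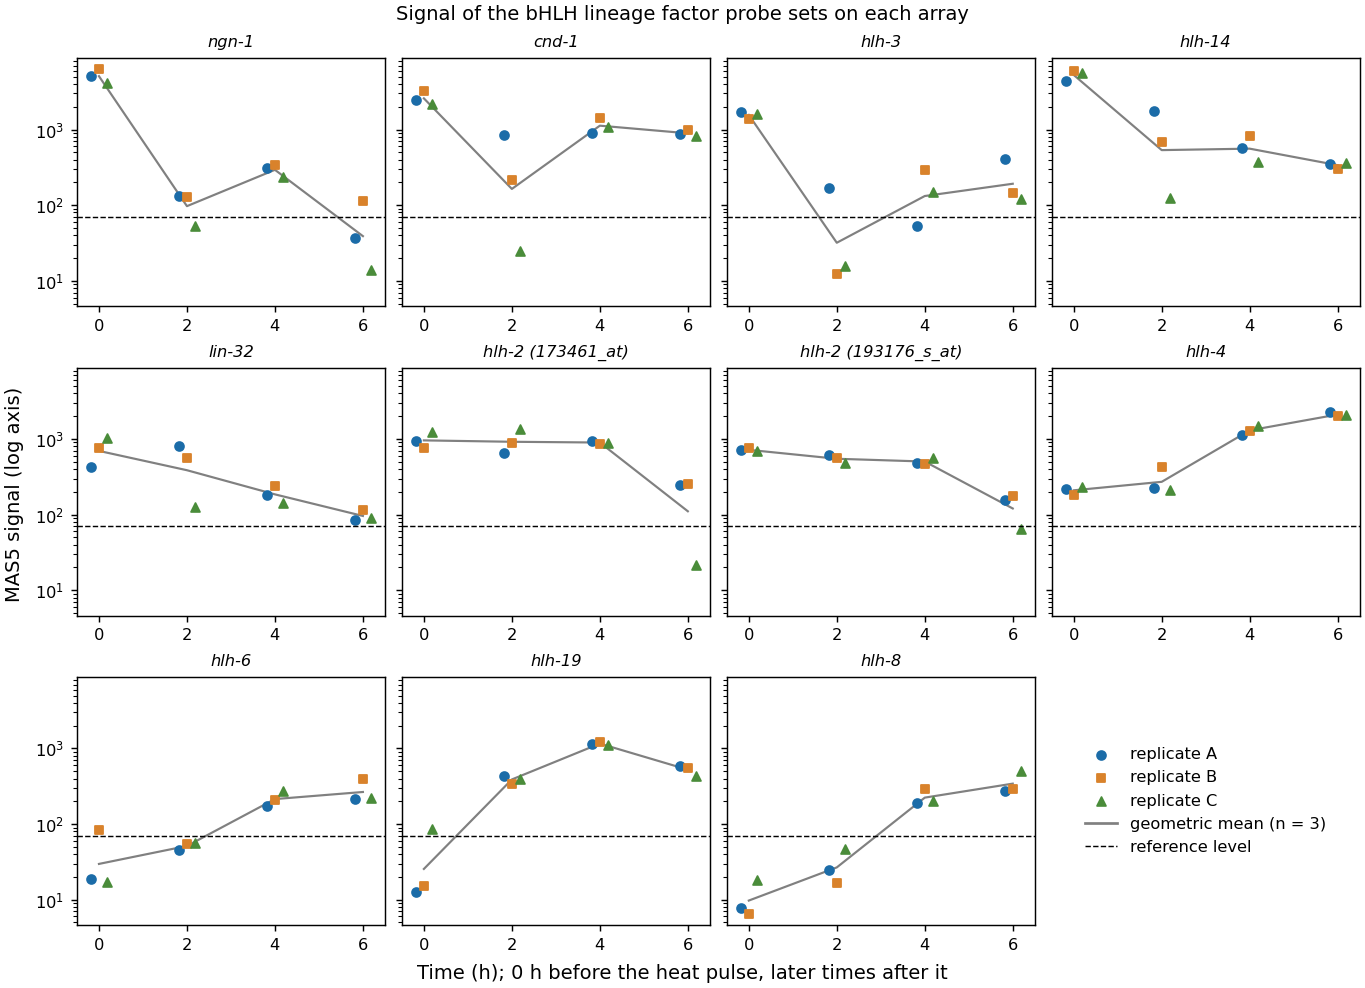
MAS5 signal (log axis) of each of the 11 probe sets against time in hours, with 1 point for each array, shaped and colored by replicate. The grey line joins geometric means of 3 arrays and the dashed line is the reference level of 69.7. *ngn-1* drops from 4071 or more to at most 134 by 2 h, whereas *hlh-4* climbs from at most 235 to at least 2022 by 6 h.

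*ngn-1*, which encodes the worm neurogenin, fell at all 3 later times. Its signals were 5143, 6249 and 4071 at 0 h, 134, 129.6 and 52.7 at 2 h, 309.7, 343 and 238 at 4 h, and 37.2, 115 and 13.8 at 6 h. No later array overlapped those at 0 h, and the 4 h arrays all lay above both the 2 h and the 6 h arrays. The mean signal went from 5154 ± 1090 to 105.4 ± 45.7 at 2 h (SD, n = 3 each), or 2.04% of its 0 h mean. The fall was at least 47.6-fold at 2 h (log2 change -5.71, standard error 0.58, limma adjusted p = 6.2e-07) and at least 61.6-fold at 6 h (log2 change -7.03, adjusted p = 1.8e-08). The step from 2 h to 4 h was at least 2.75-fold upward but did not pass the test (limma adjusted p = 0.074). This step passed without 6 h replicate B or C (adjusted p = 0.013 and 0.012). The following drop from 4 h to 6 h did pass, at a fold of at least 3.56 (limma adjusted p = 0.0013).

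*cnd-1*, a NeuroD gene with a role in motor neuron fate, was lower at every later time but passed the test at 2 h alone. Its signals were 2450.1, 3188 and 2209 at 0 h, 837, 214 and 24.6 at 2 h, 914, 1424 and 1094 at 4 h, and 863, 997 and 825 at 6 h. The 2 h arrays were far apart from each other, with replicate C the lowest by a wide margin, while the 4 h and 6 h arrays lay close together. All later arrays lay below those at 0 h. The 2 h fall was at least 11.1-fold (log2 change -3.98, standard error 1.04, limma adjusted p = 0.021), with a bound of 21.1 without 2 h replicate A and of 6.1 without 2 h replicate C. This call was lost without 0 h replicate A, B or C (adjusted p = 0.052, 0.062 and 0.050). At 4 h and 6 h the log2 changes were -1.20 (95% interval -3.57 to 1.17) and -1.53 (-3.91 to 0.84), with limma adjusted p = 0.47 and 0.30. Both passed once 2 h replicate C was left out (adjusted p = 0.023 and 0.0039), since the fit pools the spread over all 4 time points. Against the 3 arrays at 0 h, *cnd-1* retained 43.7% of its mean signal at 4 h and 34.2% at 6 h.

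*hlh-3* and *hlh-14* encode Achaete-Scute class factors of neuronal precursors, and both fell by 2 h. For *hlh-3*, signals were 1729, 1381 and 1591 at 0 h, 166, 12.3 and 15.8 at 2 h, 53.2, 293 and 148 at 4 h, and 404, 145 and 121 at 6 h. The later arrays spread widely but none reached the 0 h range. The fall of *hlh-3* was at least 16.8-fold at 2 h (log2 change -5.61, standard error 0.89, limma adjusted p = 2.8e-04), at least 10.8-fold at 4 h and 8.13-fold at 6 h. The 6 h call was lost without 6 h replicate B or C (limma adjusted p = 0.062 and 0.067). For *hlh-14*, signals were 4371, 5915 and 5647.5 at 0 h, 1777, 691 and 124.5 at 2 h, 571, 821 and 372 at 4 h, and 352, 302.5 and 362 at 6 h. Every later array again lay below those at 0 h, and the 6 h arrays were close together and below all of the 4 h arrays. *hlh-14*, which is needed for asymmetric divisions of a neuroblast lineage in the tail, fell 9.85-fold by 2 h (limma adjusted p = 0.013), 9.42-fold by 4 h and 15.6-fold by 6 h. The 3 arrays before the pulse averaged 5311 ± 825 (SD), and those at the end 338.7 ± 31.8. The 2 h value rests on replicates that differed, with 18-fold without 2 h replicate A and 4.75-fold without 2 h replicate C.

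*lin-32*, the worm Atonal gene, which acts in touch neurons and in the sensory rays of the male tail, fell more slowly. Its signals were 425, 769.5 and 1029 at 0 h, 801, 564.5 and 128 at 2 h, 184, 241.5 and 143 at 4 h, and 84.6, 115 and 90.7 at 6 h. At 2 h replicates A and B lay within the 0 h range and replicate C below it, and from 4 h on all arrays lay below 0 h. The log2 change was -0.85 at 2 h (95% interval -1.95 to 0.26, limma adjusted p = 0.28), where the 1.8-fold difference shrank to 1.03-fold without 2 h replicate C. *lin-32* then fell 3.76-fold by 4 h (limma adjusted p = 0.0083) and 7.25-fold by 6 h (log2 change -2.86, standard error 0.53, adjusted p = 1.8e-04). The 6 h arrays also lay below all 4 h arrays, a step that did not pass the test (limma adjusted p = 0.265).

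The 2 h replicates were not alike for the 5 genes just described. Replicate A gave the highest 2 h signal for all 5 of *ngn-1*, *cnd-1*, *hlh-3*, *hlh-14* and *lin-32*, and replicate C the lowest for 4 of them, *hlh-3* being lowest in replicate B. The same ordering was seen more broadly. Among the 1693 probe sets called lower at both 4 h and 6 h, which were picked without a 2 h mean, replicate A was the highest of the 2 h arrays for 50.9% and replicate C the lowest for 50.5%. Their median log2 difference from the 0 h mean was -1.52 in replicate A and -1.81 in replicate C. For the 2466 probe sets called higher at both times, the medians were 1.46 and 1.48. The part of this in the 2 h results was not tested.

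**Figure D2:**
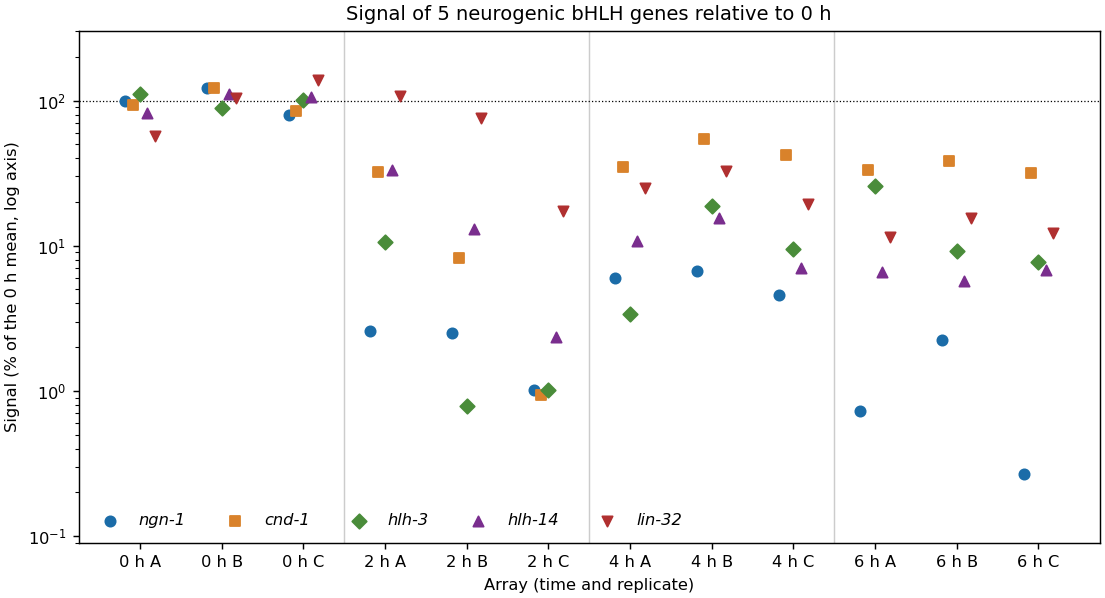
Signal of *ngn-1*, *cnd-1*, *hlh-3*, *hlh-14* and *lin-32*, the 5 genes called neurogenic in the title, on each of the 12 arrays. Values are percentages of the gene's 0 h mean (log axis), with 1 symbol for each gene. *hlh-4*, *hlh-6* and *hlh-19*, of the same class as *hlh-3* and *hlh-14*, rose and are not shown. At 2 h the symbols drop lower in replicate C than in replicate A, and by 6 h all 5 genes lie below 40% of their 0 h means.

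*hlh-2*, the gene of the common partner, fell by 6 h and did not pass the test earlier. At the first probe set signals were 940.1, 760.4 and 1231 at 0 h, 652.5, 885 and 1342 at 2 h, 941, 865 and 889 at 4 h, and 246, 255 and 21.6 at 6 h. The arrays of the first 3 time points overlapped, and all of the 6 h arrays lay below them. At the second, of a type that can also read related transcripts, they were 705, 764 and 689.6 at 0 h, 613, 557.5 and 481 at 2 h, 484, 467 and 563 at 4 h, and 156, 175 and 64.2 at 6 h. Here the 2 h and 4 h arrays already lay below all 0 h arrays, by a log2 change of -0.39 at 2 h (95% interval -1.10 to 0.31) and of -0.51 at 4 h (-1.22 to 0.19), which did not pass (limma adjusted p = 0.455 and 0.287). The first probe set changed by -0.06 at 2 h (95% interval -1.92 to 1.79) and -0.09 at 4 h (-1.95 to 1.76). By 6 h the probe sets fell at least 5.86-fold (limma adjusted p = 0.013) and at least 5.8-fold (adjusted p = 2.3e-06), the first with a bound of 3.82 without 6 h replicate C. Both also fell between 4 h and 6 h, at least 5.49-fold (limma adjusted p = 0.032) and at least 4.06-fold (adjusted p = 1.3e-04). For the first probe set that step was lost without any single 4 h array (limma adjusted p = 0.076 to 0.082), whereas the second kept it in all of those fits. 6 h replicate C, the lowest array at both probe sets of *hlh-2* and for *ngn-1*, was the lowest 6 h array for 41.6% of the 1246 probe sets called lower at both 2 h and 4 h.

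*hlh-4*, *hlh-6* and *hlh-19* belong to the same Achaete-Scute class as *hlh-3* and *hlh-14*, but these 3 genes rose. *hlh-4*, which acts in the ADL chemosensory neurons, had signals of 216, 181 and 235 at 0 h, 223, 427 and 209.9 at 2 h, 1136, 1292 and 1497.5 at 4 h, and 2243, 2022 and 2066 at 6 h. The 0 h and 2 h arrays overlapped, the 4 h arrays lay above both and the 6 h arrays above all others. *hlh-4* thus rose 6.21-fold by 4 h (log2 change 2.63, standard error 0.27, limma adjusted p = 1.5e-07) and 10.1-fold by 6 h (log2 change 3.33, adjusted p = 2.8e-09). Its mean was 210.7 ± 27.2 before the pulse and 2110 ± 117 at the end (SD, n = 3 each). At 2 h its log2 change was 0.37 (95% interval -0.20 to 0.94, limma adjusted p = 0.37). The step from 2 h to 4 h passed, at 4.79-fold (limma adjusted p = 4.7e-06), and the 1.62-fold step from 4 h to 6 h did not (adjusted p = 0.092), although it did with quantile normalization (0.048).

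*hlh-19*, whose role is less well described, was the only one of these genes to rise by 2 h, and its signals were highest at 4 h. Its signals were 12.6, 15.4 and 85.4 at 0 h, 435, 344 and 393 at 2 h, 1135, 1232 and 1112 at 4 h, and 587.5, 558 and 438 at 6 h. No array of one time point overlapped those of another. The rise was at least 5.22-fold at 2 h (limma adjusted p = 5.3e-06), at least 15.5-fold at 4 h (log2 change 5.51, standard error 0.51, adjusted p = 3.9e-08) and at least 7.02-fold at 6 h. From 2 h to 4 h *hlh-19* rose 2.98-fold (limma adjusted p = 0.040), a step that was lost without any single 2 h or 4 h array or 6 h replicate B (adjusted p = 0.051 to 0.13), with median centring (0.058) and without the variance trend and robust estimation (0.134). The 2.21-fold drop from 4 h to 6 h did not pass (limma adjusted p = 0.14), except without 0 h replicate C (0.012) and with signals raised to the reference level (0.0028).

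*hlh-8* came up from below the reference level, and so did *hlh-6* but for 1 array at 0 h. *hlh-6*, which drives the development of the pharyngeal glands, had signals of 18.6, 83.4 and 16.9 at 0 h, 45.3, 53.8 and 55.4 at 2 h, 175, 207 and 271 at 4 h, and 213.5, 394 and 222.5 at 6 h. *hlh-8*, the worm Twist gene, which acts in the postembryonic M lineage and the enteric muscles, had signals of 7.8, 6.5 and 18.2 at 0 h, 24.7, 16.7 and 46.2 at 2 h, 191, 292 and 200.1 at 4 h, and 276, 289 and 503 at 6 h. In both genes the 4 h and 6 h arrays overlapped each other and lay above all earlier ones. *hlh-6* rose at least 2.89-fold by 4 h (limma adjusted p = 0.0030) and at least 3.59-fold by 6 h (log2 change 3.16, standard error 0.70, adjusted p = 9.1e-04). *hlh-8* rose at least 3.21-fold by 4 h (limma adjusted p = 9.4e-05) and at least 4.91-fold by 6 h (adjusted p = 1.5e-05). As all of its 0 h arrays were below the reference level, the fitted log2 change of *hlh-8* at 6 h, 5.14, is set against background, and it was 2.30 with signals raised to that level. At 2 h no array of either gene was above the reference level, and the log2 changes of 0.79 (95% interval -0.66 to 2.24) and 1.46 (-0.17 to 3.08) did not pass (limma adjusted p = 0.47 and 0.19).

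**Figure D3:**
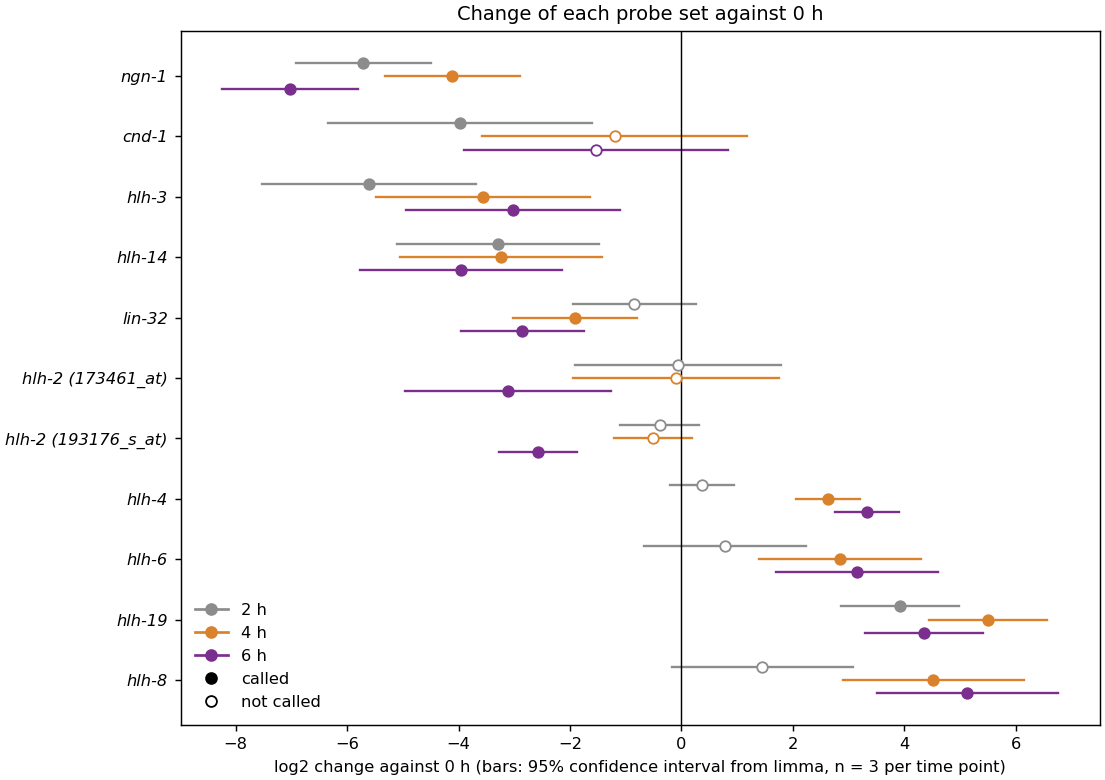
Log2 change of each probe set at 2, 4 and 6 h against 0 h, with 95% confidence intervals from limma (3 arrays at each time point). Filled symbols are called and open symbols are not. At 6 h *ngn-1*, *cnd-1*, *hlh-3*, *hlh-14*, *lin-32* and *hlh-2* lie left of 0. *hlh-4*, *hlh-6*, *hlh-19* and *hlh-8* lie right of it, and *cnd-1* is the only one not called at that time.

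Comparisons that leave out the 0 h embryos set pulsed embryos against each other. Here too, effects of HLH-1, of time since the heat pulse and of embryo age cannot be told apart. From 2 h to 4 h, *hlh-4*, *hlh-8* and *hlh-19* rose and none of the 11 probe sets fell, nor was any lower at an unadjusted p under 0.05 in limma, while 6.9% of all tested probe sets were called higher and 7.35% lower. The 4 h arrays lay wholly above the 2 h arrays for 6 of the 11, against 16% of the array. From 4 h to 6 h, *ngn-1* and both probe sets of *hlh-2* fell and none rose, although 1 (*hlh-4*) was higher at an unadjusted p under 0.05 in limma, while 7.73% of the array was called higher and 8.39% lower. Median centring turned the array's 1412 higher and 1532 lower into 1023 and 2294. The 6 h arrays lay wholly below the 4 h arrays for 6 of the 11, against 14.7%, and wholly above for 1, against 17.9%. Between 2 h and 6 h, 4 were called higher and 3 lower, against 28.8% of all probe sets, 14.3% higher and 14.5% lower. After median centring the array had 1894 higher and 3620 lower, in place of 2610 and 2646, and the factors 3 higher and 4 lower. Without overlap, 4 were higher and 3 lower, against 23.4% and 20.6%. The clearest of these were *hlh-4*, 7.77-fold higher (limma adjusted p = 2.8e-08), and *hlh-8*, at least 4.91-fold higher (adjusted p = 8.3e-04). *hlh-6* was at least 3.81-fold higher (limma adjusted p = 0.012), or not called without 6 h replicate B (0.068). *hlh-3* was at least 2.06-fold higher (limma adjusted p = 0.041), a call lost with either other scaling, with signals raised to the reference level (0.108), without the variance trend and robust estimation (0.074), and without 2 h replicate B or C, 4 h replicate C or any single 6 h array. *lin-32* was 4.03-fold lower (limma adjusted p = 0.0058), or not called without 2 h replicate A (0.055). Both probe sets of *hlh-2* were lower, at least 5.62-fold and at least 4.42-fold (limma adjusted p = 0.019 and 2.7e-05), the first not called without 2 h replicate C (0.062). Some of the steps that did not pass turned on single arrays. From 2 h to 4 h, *hlh-6* was at least 3.07-fold higher at a limma adjusted p of 0.0501, and was called without any single 0 h array (0.026 to 0.035). *cnd-1* was called higher at 4 h than at 2 h without 2 h replicate A or C (limma adjusted p = 0.0059 and 0.037), and at 6 h than at 2 h without 2 h replicate A (0.0039). Without 2 h replicate A, *hlh-3* was also called higher at 4 h than at 2 h (limma adjusted p = 0.0018). Without 2 h replicate C, *lin-32* was called lower at 4 h than at 2 h (limma adjusted p = 0.0061) and *hlh-14* lower at 6 h than at 2 h (0.0011). *ngn-1* was called lower at 6 h than at 2 h without 2 h replicate C or 6 h replicate B and with either other scaling (limma adjusted p = 0.0020 to 0.042).

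Profiles of the factors were set side by side as the root mean square difference of log2 signal over the 12 arrays, each profile centered on its own mean. This is a description, and the points share the same arrays and time points. Dim signals entered as measured, and *hlh-6* was not above the reference level on 5 of the 12 arrays and *hlh-8* on 6. *hlh-4* and *hlh-6* differed by 0.72, *hlh-4* and *hlh-8* by 0.99, *hlh-6* and *hlh-8* by 1.21, and the probe sets of *hlh-2* by 0.72. With signals raised to the reference level, a setting chosen after seeing the data, these differences were 0.67, 0.56, 0.42 and 0.42, so the order of likeness among them was not settled. *hlh-14* and *lin-32*, above the level on all arrays, differed by 0.94 either way. Over the 10808 other probe sets of a single named gene, the nearest to *ngn-1* were those of *aptf-4*, *athp-3* and *egl-18* (0.99, 1 and 1.04), of which *egl-18* encodes a GATA factor of the epidermis. Nearest to *hlh-3* were *eat-2*, *best-18* and the homeobox gene *ceh-5* (0.89, 0.97 and 1.06), and *ceh-5* was also second to *him-3* in its nearness to *cnd-1* (0.75 and 0.44), ahead of *clec-199* (0.82). Nearest to *hlh-19* were *pcp-1*, *cpr-6* and *str-94* (0.58, 0.62 and 0.71), and nearest to *hlh-8* were *syd-9*, *mps-2* and *gpb-2* (0.57, 0.59 and 0.60). These nearest profiles were sought on signals as measured only. Besides *hlh-8*, *ngn-1* and *hlh-3* were each not above the reference level on 3 of the 12 arrays.

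Other bHLH genes of the same classes mostly rose. Of 8 with a probe set of their own among 10 listed, those that rose numbered 4 at 2 h, 5 at 4 h and 6 at 6 h, and 1 fell at each time, with a median log2 change of 2.76 at 6 h. The 8 include the induced gene *hlh-1* itself, which was among the risers at each time. Over the whole array, 15.5%, 17.1% and 21.7% of tested probe sets were called higher at 2, 4 and 6 h, and 9.55%, 11.9% and 15.6% lower. *hnd-1*, which encodes a HAND factor, was the one that fell, from a mean of 16520 ± 4120 at 0 h (SD). It was 10.6-fold lower at 2 h, 25.9-fold at 4 h and 83.5-fold at 6 h (limma adjusted p = 0.0011, 8e-05 and 4.9e-06). Its signals at 2 h were 3739, 1537.5 and 622, the same ordering of replicates as in *cnd-1* and *hlh-14*. *hlh-12*, which acts in the migrating distal tip cells of the gonad, showed the largest rise of the 8 at 2 h, from 67.6, 163 and 62.7 to 35491, 30204 and 29289. It was at least 341-fold higher at 2 h, at least 489-fold at 4 h and at least 98.9-fold at 6 h (limma adjusted p = 5.5e-13, 1.8e-13 and 4.3e-12). Like *hlh-19*, *hlh-16*, an Olig-related gene, was highest at 4 h, with 150.1, 199 and 176 at 0 h, 12028.5, 7468 and 8009 at 4 h, and 1362, 471 and 957 at 6 h. It was 51.5-fold higher than 0 h at 4 h and 4.88-fold at 6 h (limma adjusted p = 1.1e-11 and 3.8e-06). *hlh-10* rose from 2 h on and *hlh-13* from 4 h on. *hlh-10* was at least 3.33-fold higher at 2 h and at least 81.4-fold at 6 h (limma adjusted p = 0.0070 and 1.7e-05), and *hlh-13*, related to the pancreas factor PTF1A of vertebrates, at least 2.69-fold at 4 h and at least 27.1-fold at 6 h (adjusted p = 9.2e-04 and 7.3e-08). *hlh-15* was called higher only at 6 h, at least 4.69-fold (limma adjusted p = 0.0028), and at 4 h too without 0 h replicate A (0.0089). *hlh-31* was not called at any time (at 6 h its log2 change was 1.33, limma adjusted p = 0.36), except at 6 h with signals raised to the reference level (0.014). It has close relatives whose transcripts the probe set may also read.

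Genes that these factors are known to act on, or to act beside, were called at shares close to those of the whole array at 6 h. Of 17 listed, 14 were tested. Risers numbered 4 at 2 h, then 3 at 4 h and 3 at 6 h, and those that fell numbered 1, 1 and 2. At 6 h this was 21.4% higher and 14.3% lower, where the array had 21.7% and 15.6%, with a median log2 change of 0.56 at 6 h. At 2 h it was 28.6% higher and 7.14% lower (array 15.5% and 9.55%), and at 4 h 21.4% and 7.14% (array 17.1% and 11.9%). *egl-1*, the BH3-only activator of cell death, which HLH-2 and HLH-3 regulate in the sister cell of the NSM neuron, had signals of 121, 57.6 and 130.3 at 0 h and 2565, 5159.5 and 4517 at 6 h. It rose at least 2.6-fold by 2 h, at least 9.35-fold by 4 h and at least 37.9-fold by 6 h (limma adjusted p = 0.0054, 6.6e-07 and 4.3e-10). Against 0 h, *hlh-3* fell at all of these times and *hlh-2* at 6 h alone. The part of both factors in the rise of *egl-1* was not tested. Among the gland genes, *phat-4* had signals of 53, 11.3 and 124 at 0 h, 15035, 16935 and 17587 at 2 h, and 660, 659 and 318 at 6 h. *phat-5* showed the same course, with 552, 575 and 618 at 0 h, 16177, 17734 and 17812 at 2 h, and 1099, 1039 and 1034 at 6 h. Both were highest on the 2 h arrays. At that time no array of *hlh-6* exceeded the reference level, and the part of HLH-6 in these changes was not tested. The probe sets of *phat-5* and *phat-2* are of the type that can also read related transcripts. *phat-3* was not called at any time (at 2 h its log2 change was 1.11, limma adjusted p = 0.45). The rises at 2 h were at least 195-fold for *phat-4* and 29.6-fold for *phat-5* (limma adjusted p = 1.6e-05 and 2.1e-14), and the later 1.82-fold excess of *phat-5* at 6 h was lost with median centring (0.062). *phat-2* fell 10.8-fold by 4 h and at least 14.1-fold by 6 h (limma adjusted p = 6.8e-06 and 9.3e-07), where its mean was 126.2 ± 101 against 1577 ± 391 before the pulse (SD, n = 3 each). *phat-1* was 2.54-fold higher at 2 h (limma adjusted p = 0.027), a call lost without 0 h replicate A or C, without 2 h replicate B or C (0.079 to 0.093) and with quantile normalization (0.070). *mls-2*, a homeobox gene that acts in the M lineage, was 3.04-fold lower at 2 h and 2.55-fold lower at 6 h (limma adjusted p = 0.020 and 0.037). Its 2 h call was lost without 0 h replicate B or C or 2 h replicate A or C (limma adjusted p = 0.060 to 0.088), and its 6 h call without 0 h replicate B or C or 6 h replicate A or B (0.051 to 0.13). The HLH-8 targets *ceh-24* and *egl-15* were too dim to test, with means of 73.1 ± 96.1 and 17 ± 11.7 by 6 h (SD over 3 arrays). *arg-1*, another gene known to depend on HLH-8, did not pass (log2 change -0.38, limma adjusted p = 0.71).

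**Figure D4:**
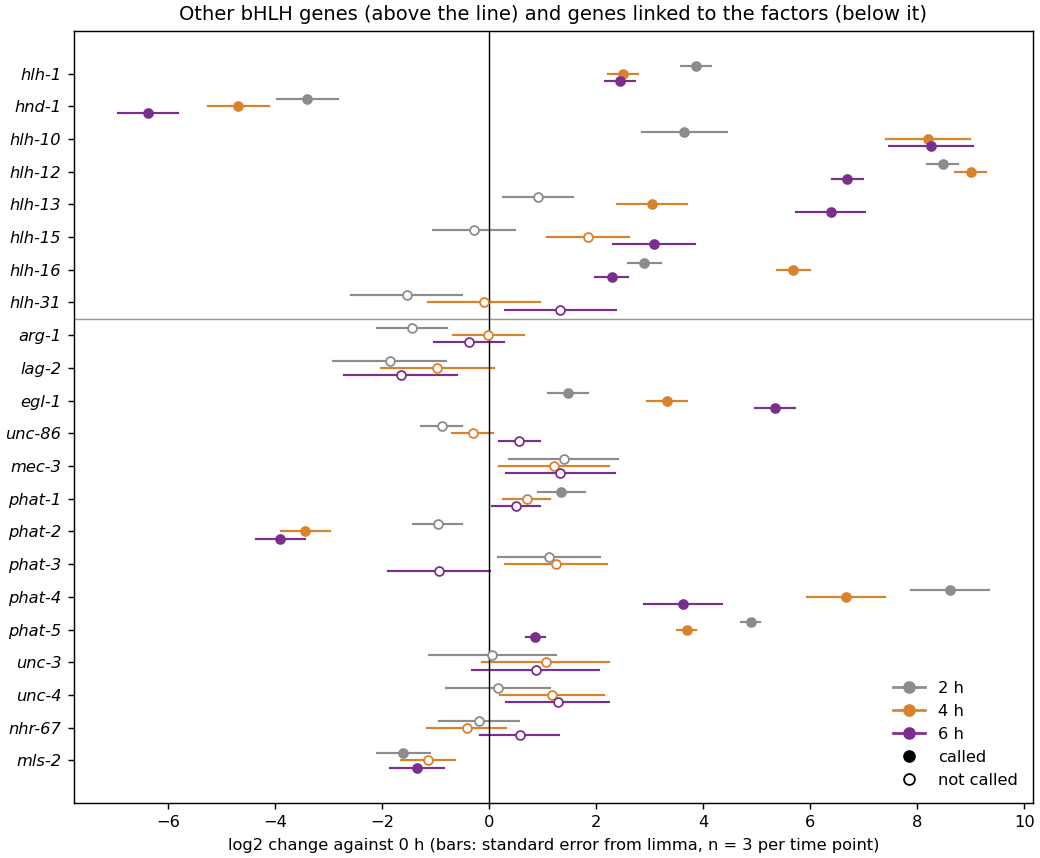
Log2 change at 2, 4 and 6 h against 0 h, with standard errors from limma (3 arrays at each time point), for the 22 tested genes of both lists, the other bHLH genes above the grey line and the linked genes below it. Filled symbols are called and open symbols are not. *hlh-12* lies right of 6 log2 units at all 3 times, and *hnd-1* and *phat-2* lie far to the left at 6 h.

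Markers of the cell types in which these factors act were also read. Of 11 tested pan-neuronal markers, 1 was called at 6 h (*unc-64*, at least 6.71-fold higher) and 10 did not pass. Earlier, *unc-10* was 4.18-fold higher at 2 h (limma adjusted p = 0.0024), *unc-64* at least 2.71-fold higher at 4 h (0.0051) and *unc-31* at least 1.44-fold lower at 4 h (0.016). The *unc-31* call rests on a fitted log2 change of -3.41, with no 4 h array above the reference level. It was lost with signals raised to that level (limma adjusted p = 0.131) and without 0 h replicate C (0.060). The summed signal of the 12 listed was 8458 to 10980 at 0 h and 7090 to 10400 at 6 h. Most of that sum came from *snb-1*, at 8682 at 0 h, while *rab-3*, *rgef-1* and *egl-3* had 0 h means of 38, 22.9 and 41.1, below the reference level. Of 9 pharyngeal markers, which include the *phat* genes, 3 rose and 1 fell by 6 h. Their summed signal was 2586 to 3424 at 0 h, 33410 to 36810 at 2 h and 2406 to 3294 at 6 h. Most of the 2 h sum came from *phat-4* and *phat-5*, with means of 16520 and 17240. At that time *myo-2*, *myo-1*, *pha-4* and *ceh-22* were not called. *ceh-22* rose later, at least 3.37-fold by 4 h and at least 5.28-fold by 6 h (limma adjusted p = 0.0054 and 9.1e-04). Of 3 tested enteric muscle and M lineage markers, *sem-2* fell by 6 h, at least 8.35-fold, and *arg-1* and *mls-1* did not pass. The part of these cell types in the changes of the bHLH genes was not tested.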

How the data were processed

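Embryo RNA was reverse transcribed, and the cDNA, after 20 PCR cycles, carried a biotin label onto Affymetrix *C. elegans* arrays. The intensity values are linear MAS5 signals that the authors computed and scaled for each array before they were deposited. Which version of MAS5 was run was not given in the sources used here. No further scaling was applied. Of 22625 probe sets, 77 controls were left out, and the filter took each array's 40th percentile, whose median was 69.7, as its reference level. A single gene was annotated for 20766 of the other probe sets, several genes for 887 and no gene for 895. The symbols of all 10 genes were the same in a RefSeq table (WBcel235).

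Log2 signals were fitted in limma 3.58.1 under R 4.3.3 with the 4 time points as groups, a mean-variance trend and robust estimation, and the script was tested on simulated data. The 6 contrasts were each adjusted over all 18264 tested probe sets. Folds are ratios of means on the log2 scale, and errors beside signals are SDs. The number of arrays limits the precision. Log2 signals of replicates correlated at 0.835 to 0.884 (Pearson) over probe sets, a description since probe sets are not independent, and no arrays held identical values.

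Genes, lists and tests were chosen with earlier results of these data known. All probe sets of the factors are described, with the 3 nearest profiles for each of the 5 factors of largest fitted log2 change (signals below the reference level included, which bears on the choice of *hlh-8* and *cnd-1*), and every called gene of the lists of other bHLH genes and of linked genes. Listed genes were read at their brightest probe set. Marker lists covered neurons, pharynx, body wall muscle, intestine, epidermis, enteric muscle and M lineage, germline and heat shock genes. By 6 h, 1 of 6 tested intestine markers rose and 2 fell, 2 of 6 epidermis markers rose and 1 fell (2 of 7 rose and 2 fell once *egl-18*, also named *elt-5*, was counted, a change made after seeing the data), 6 of 8 germline and maternal transcripts fell, and 3 of 6 heat shock genes rose. Of the epidermis risers, *nhr-25* (limma adjusted p = 0.049) was lost with quantile normalization (0.135), median centring (0.143) and the replicate block (0.0505). It was also lost without any single 4 h or 6 h array. Alternatives were quantile normalization, median centring, no filter, a 60th percentile filter, signals raised to the reference level, no trend or robust estimation, no fold threshold, a replicate block and leaving out each array.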

Additional observations from a re-analysis of the deposited data

How the results depend on the processing

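Against 0 h, none of the calls of the bHLH factors changed under the 8 alternatives other than leaving out an array. Leaving out 1 array changed calls of *cnd-1* at all 3 times and of *hlh-3* at 6 h, as given above. The count of called probe sets of the factors ranged over the left-out arrays from 4 to 5 at 2 h, 8 to 9 at 4 h and 9 to 11 at 6 h, each against 0 h, and from 2 to 4 for 4 h against 2 h, 2 to 4 for 6 h against 4 h and 6 to 7 for 6 h against 2 h. Over the whole array, in the same order, counts ranged from 3925 to 4714, 4781 to 5414, 6237 to 6771, 2046 to 2675, 2458 to 2988 and 4612 to 5328. With signals raised to the reference level, 6 rather than 3 of the factors' probe sets were called for 4 h against 2 h, with *hlh-6*, *ngn-1* and *cnd-1* added.

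The log2 changes of the factors at 6 h against 0 h shifted by -0.361 with median centring and by a median of -0.181 with quantile normalization. Changes of sign were confined to values that did not pass the test. With quantile normalization, the changes of *hlh-2* from 2 h to 4 h became 0.14 at the first probe set and 0.0367 at the second, and with median centring that of *hlh-14* became -0.0203. With signals raised to the reference level, *hlh-6* stood at -0.0863 at 2 h against 0 h. With 1 array left out, log2 changes of *hlh-2* (first probe set) ranged from -0.33 to 0.19 at 2 h against 0 h, from -0.26 to 0.0866 at 4 h against 0 h and from -0.28 to 0.24 at 4 h against 2 h. Those of *hlh-14* ranged from -0.99 to 0.93 at 4 h against 2 h and from -1.71 to 0.20 at 6 h against 2 h, and those of *hlh-3* from -0.12 to 1.11 at 6 h against 4 h.

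Deviations from the group means of samples with the same replicate letter correlated at -0.026 to 0.033 across probe sets, which gave no clear pairing. Between 6 h and 4 h, same-letter correlations (0.033, 0.031 and 0.022 for A, B and C) all exceeded the highest with another letter (-0.011, -0.011 and -0.008). Whether the letters mark paired samples was therefore not settled. With the replicate block, 5, 8 and 10 of the factors' probe sets were called at 2, 4 and 6 h against 0 h, the same counts as without it. In the later steps the block gave 4 calls for 4 h against 2 h, with *ngn-1* added (limma adjusted p = 0.019), 2 for 6 h against 4 h, with the first probe set of *hlh-2* lost (0.0615), and 8 for 6 h against 2 h, with *ngn-1* added (0.0307).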
